A study of Mus musculus with 2 samples.

Results

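The genes described here are 8 of the 45578 genes in a ribosome profiling table of neonatal mouse brain. They are the neurofilament genes Nefl, Nefm, Nefh and Ina, the related filament genes Prph and Vim, and the filament genes of neural progenitors and astrocytes, Nes and Gfap. They were chosen by symbol, taken as the transcript name without its trailing number, and all 8 were found, with 19 annotated transcripts. Ribosome-protected fragments (footprints) were counted from the pooled polysome fractions of 2 brains at postnatal day 5, which formed a single control group (n = 2). Both animals were Smn+/-; SMN2tg/0 on an FVB background, so each carried 1 disrupted copy of Smn and a human SMN2 transgene, and no animal without these alleles entered the data used here. The libraries held 1866831 footprints in replicate 1 and 5261878 in replicate 2. Whole brain was profiled, so fewer cells of a type and fewer ribosomes per cell cannot be told apart.

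Intermediate filaments are the rope-like polymers of the cytoskeleton. Their proteins share a coiled-coil rod and differ mainly in the head and tail on either side of it. In neurons the light chain NF-L builds filaments together with NF-M, NF-H and alpha-internexin, and the long, phosphorylated tails of NF-M and NF-H project from the filament, which sets the calibre of large axons after birth. Peripherin marks neurons with axons outside the brain and some brainstem neurons. Vimentin and nestin fill radial glia and other progenitors, vimentin also fills vessel and meningeal cells, and GFAP becomes the main filament protein of maturing astrocytes.

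The coding sequences of these genes differ in length, so levels of different genes were compared as footprint density, the footprints scaled to the library total (CPM) divided by the kilobases of the longest annotated coding sequence. Positions are those of RefSeq for GRCm38.p6; the submitters' processing notes name GRCm38.p4, a patch of the same build. Nefl (ENSMUSG00000022055, chr14:68083863-68089095) has a coding sequence of 1632 nt, for a protein of 543 residues. Nefm (ENSMUSG00000022054, chr14:68119545-68125004) has 2547 nt for 848 residues. Nefh (ENSMUSG00000020396, chr11:4938754-4948064) has 3273 nt for 1090 residues. Ina (ENSMUSG00000034336, chr19:47014681-47025327) has 1506 nt for 501 residues. Prph (ENSMUSG00000023484, chr15:99053579-99058978) has 1524 nt for 507 residues, and Vim (ENSMUSG00000026728, chr2:13574311-13582826) has 1401 nt for 466. Nes (ENSMUSG00000004891, chr3:87971093-87980451) has the longest coding sequence of the 8, 5595 nt for 1864 residues, and Gfap (ENSMUSG00000020932, chr11:102887336-102897200) the shortest, 1293 nt for 430.

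The 8 genes fell into a dense and a sparse group. Vim, Ina, Nefl, Gfap and Nefm had mean densities from 137 to 275 CPM per kilobase, between percentiles 88.8 and 95.6 of the 13317 coding genes whose mean count was 10 or more. Nefh, Prph and Nes had mean densities from 6.80 to 13.9, between percentiles 19.5 and 35.8, and below the median coding gene at 23.5. The smallest gap between the groups was 7.74-fold, for Nefm over Prph in replicate 2. Together the 8 genes took 0.175% of all footprints in replicate 1 (0.169 to 0.181, the 95% interval by the Clopper-Pearson method) and 0.145% in replicate 2 (0.142 to 0.149). Intervals here cover counting error only.

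**Figure D1:**
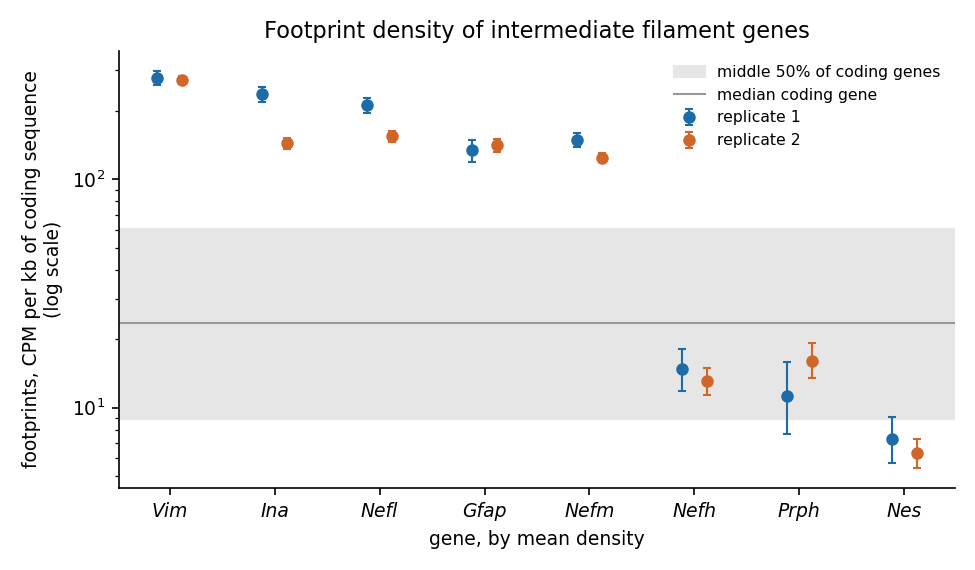
Footprint density (CPM per kilobase of longest coding sequence, log axis) of each gene in replicate 1 (blue) and replicate 2 (orange), with 95% counting intervals; the grey band holds the middle 50% of 13317 coding genes and the grey line is their median, 23.5. Vim, Ina, Nefl, Gfap and Nefm lie above the band, Nefh and Prph lie in its lower part and Nes lies below it.

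Nefl encodes the light chain on which neurofilaments are built. Its footprints numbered 642 in replicate 1 and 1324 in replicate 2. The densities were 211 CPM per kilobase (95% interval 195 to 228) and 154 (146 to 163), for a mean of 182 ± 40.0 (SD, n = 2). The intervals of the libraries did not overlap, and replicate 1 was the higher. Nefm, the medium chain, had 708 and 1669 footprints, more than Nefl in both libraries. Over its longer coding sequence these gave lower densities, 149 (138 to 160) in replicate 1 and 125 (119 to 131) in replicate 2, with a mean of 137 ± 17.2. The density of Nefm was 0.757 ± 0.0715 of that of Nefl (SD, n = 2). The order of this pair rests on the length used: per kilobase of whole transcript, which is 3380 nt for Nefl and 3334 nt for Nefm-001, Nefm was 1.20 ± 0.113 times as dense as Nefl.

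Ina encodes alpha-internexin, a neurofilament subunit that appears early in developing neurons. Its footprints numbered 662 and 1140, at densities in replicates 1 and 2 of 235 (218 to 254) and 144 (136 to 152) and a mean of 190 ± 64.8 CPM per kilobase (SD, n = 2). Its spread between the libraries was the largest of the 8, and its place relative to Nefl changed with the library. The Ina density was 1.12 times that of Nefl in replicate 1 (1.00 to 1.25) and 0.933 times in replicate 2 (0.861 to 1.01). Ina and Nefl were therefore not apart beyond counting error in both libraries.

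Nefh, the heavy chain, was the sparse neurofilament gene. It had 90 and 225 footprints, at densities of 14.7 (11.8 to 18.1) and 13.1 (11.4 to 14.9) and a mean of 13.9 ± 1.18 CPM per kilobase (SD, n = 2). The libraries overlapped. Nefm was denser than Nefh by 10.1 times in replicate 1 (8.11 to 12.7) and 9.53 times in replicate 2 (8.29 to 11.0). Nefl exceeded Nefh by 14.3 times (11.5 to 18.0) and 11.8 times (10.2 to 13.7). The gap was present in each library and was many times the replicate spread.

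The 4 neurofilament genes were then set against each other as shares of their summed density. Ina held the largest share in replicate 1 (38.6%, beside 34.6% for Nefl). In replicate 2 Nefl did (35.4%, beside 33.0% for Ina), and Nefh held the smallest in both. Mean shares were 35.8% ± 3.95 for Ina, 35.0% ± 0.592 for Nefl, 26.5% ± 2.95 for Nefm and 2.71% ± 0.413 for Nefh (SD, n = 2). By plain footprints, which weight long coding sequences more, the same genes held 28.8% ± 3.77, 30.5% ± 0.114, 36.0% ± 3.26 and 4.72% ± 0.623. The ratios among Nefl, Nefm and Nefh had overlapping counting intervals in the libraries for all 3 pairs. The ratios of Ina to Nefm and of Ina to Nefh did not: Ina over Nefm was 1.58 (1.42 to 1.76) in replicate 1 and 1.16 (1.07 to 1.25) in replicate 2.

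**Figure D2:**
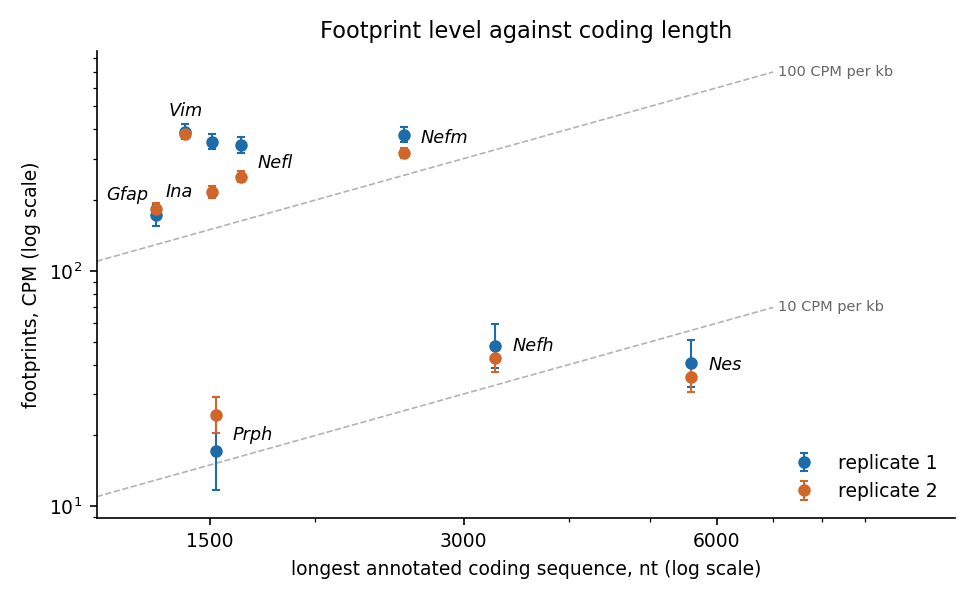
Footprint level (CPM, log axis) against the length of the longest coding sequence (nt, log axis) for the 8 genes in replicate 1 (blue) and replicate 2 (orange), with 95% counting intervals; dashed lines mark equal density at 10 and 100 CPM per kilobase. Nefm lies at a longer coding length than Nefl and Ina, with overlapping intervals in replicate 1 (379, 344 and 355 CPM) and above both in replicate 2 (317, 252 and 217 CPM), while Nefh, Prph and Nes lie near the line for 10 CPM per kilobase.

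Prph encodes peripherin. It was the member with the fewest footprints, 32 in replicate 1 and 129 in replicate 2. Its densities of 11.2 (7.69 to 15.9) and 16.1 (13.4 to 19.1) gave a mean of 13.7 ± 3.42 CPM per kilobase (SD, n = 2), and they overlapped. Prph and Nefh could not be ordered: Nefh was 1.31 times as dense in replicate 1 (0.866 to 2.03) and 0.812 times in replicate 2 (0.651 to 1.02).

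Genes of the neurons in which peripherin is known were also sparse. Of 6 genes of motor and cholinergic neurons, 5 had a mean count of 10 or more, and Mnx1, a spinal motor neuron factor, was at 0 in both libraries. The list summed to 33.7 CPM in replicate 1 and 38.0 in replicate 2. The 6 genes of peripheral sensory neurons summed to 30.5 and 24.7 CPM, with the nociceptor channel genes Scn10a at 2 and 3 footprints and Trpv1 at 1 and 2. The part of peripheral nerve in the Prph footprints was not tested.

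Vim encodes vimentin. It drew 728 and 2009 footprints, at densities of 278 (258 to 299) and 273 (261 to 285) and a mean of 275 ± 4.12 CPM per kilobase (SD, n = 2). The libraries overlapped closely, and Vim was the densest member in each. That place rests on transcripts annotated as retained introns: with protein-coding transcripts alone Vim had 189 ± 5.35, about level with Ina at 190 ± 64.8.

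Gfap encodes the filament protein of astrocytes. It had 323 and 960 footprints, at densities of 134 (120 to 149) and 141 (132 to 150) and a mean of 137 ± 5.15 CPM per kilobase (SD, n = 2). The libraries overlapped, and Gfap and Nefm traded places: Gfap was 0.899 times as dense as Nefm in replicate 1 (0.785 to 1.03) and 1.13 times in replicate 2 (1.05 to 1.23). Vim was 2.01 ± 0.105 times as dense as Gfap.

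Nes encodes nestin, a filament protein of dividing neural progenitors that builds filaments together with vimentin. Only 76 and 186 footprints were found on it, at densities of 7.28 (5.73 to 9.11) and 6.32 (5.44 to 7.29) and a mean of 6.80 ± 0.678 CPM per kilobase (SD, n = 2). Vim was denser than Nes by 38.3 times in replicate 1 (30.2 to 49.1) and 43.1 times in replicate 2 (37.1 to 50.4). By plain level the gap was smaller, at 390 CPM for Vim and 40.7 for Nes in replicate 1. Vim held 65.6% ± 1.04 of the summed density of Vim, Gfap and Nes, Gfap held 32.8% ± 1.20 and Nes 1.62% ± 0.163, and the ratios of all 3 pairs had overlapping intervals in the libraries.

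Markers of cells other than astrocytes and neurons that hold vimentin or nestin also had footprints. The 6 genes of radial glia and progenitors summed to 795 CPM in replicate 1 and 627 in replicate 2. Fabp7, a fatty acid binding protein of radial glia, was the densest at 866 ± 230 CPM per kilobase. The sum came mostly from Fabp7, at 583 CPM in replicate 1 and 399 in replicate 2. Mki67 and Prom1 had mean densities of 3.32 and 11.6, below the median coding gene at 23.5, and the other genes of the list lay above it. The 5 endothelial genes summed to 281 and 248 CPM, and the 6 genes of meninges, fibroblasts and pericytes to 809 and 737 CPM. Microglial genes, which mark another brain cell type, summed to 179 and 173 CPM, and skeletal muscle genes to 77.1 and 54.7 CPM. The muscle sum came mostly from Acta1, at 140 and 264 footprints in replicates 1 and 2. Ckm had 3 and 4 and Myh3 had 1 and 20. Acta1 is an actin gene, and actin genes are close in sequence to one another. The muscle sum therefore does not show that muscle was present. How the Vim and Nes footprints divide among these cells was not tested.

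By mean density the order was Vim, Ina, Nefl, Gfap, Nefm, Nefh, Prph and Nes. Of the 7 pairs of neighbours, 3 kept their order beyond counting error in both libraries: Vim over Ina, Nefl over Gfap and Nefm over Nefh. Over all 28 pairs this held for 23. With 2 libraries in a single group a permutation test cannot reach a p under 0.05, so the order was described and not tested. In the plane of the densities of both libraries, the coding genes nearest to Nefl were Sf3b5 and 2210016L21Rik, those nearest to Ina were Scand1 and Tmem35, and those nearest to Vim were Rheb and Ptov1. The nearest to Gfap were Dync1i1 and Lynx1, and to Nefm Idh3b and Npc2. Those nearest to Nefh were Ppcs and Plxnb1, to Prph Arntl and Lifr, and to Nes Dclre1b and Adamts15. The largest of these distances was 0.037 on the log2 scale, for 2210016L21Rik, and the likeness is over 2 libraries only.

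The annotated transcripts of a gene share sequence, so the deposited split between them describes how fragments were assigned. Nefl, Ina and Nefh have 1 annotated transcript each. Nefm-002 has a coding sequence of 1413 nt, 55.5% of that of Nefm-001, and so encodes 378 fewer residues. It held 212 of the 708 Nefm footprints in replicate 1 (29.9%) and 507 of 1669 in replicate 2 (30.4%), a share that differed by less than its counting intervals (26.6 to 33.5 and 28.2 to 32.6). Prph-201 is shorter than Prph-202 by 96 nt, or 32 codons. It held 19 of 32 footprints in replicate 1 and 63 of 129 in replicate 2, with wide and overlapping intervals (40.6% to 76.3% and 39.9% to 57.8%).

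Gfap-001 and Gfap-201 encode 430 and 428 residues and differ in their 3′ untranslated lengths, 1341 and 1230 nt. Gfap-001 held 163 and 500 footprints, a share of 51.3% ± 1.14 (SD, n = 2), and Gfap-201 held 145 and 424, a share of 44.5% ± 0.513. Nes-001 and Nes-003, with 1864 and 1820 residues, held 35 and 39 footprints in replicate 1 and 91 and 77 in replicate 2, so neither was higher in both libraries.

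The 6 Vim transcripts include 3 retained introns, whose annotated coding length is 0. These held 225 of 728 Vim footprints in replicate 1 (30.9%, 27.6 to 34.4) and 647 of 2009 in replicate 2 (32.2%, 30.2 to 34.3), where 9.36% ± 0.387 of all footprints in the table lay on retained introns (SD, n = 2). Among 3675 coding genes with a retained-intron transcript and a mean count of 100 or more, the median share was 15.6% and Vim stood at percentile 80.7. Vim-004, a retained intron of 535 nt, had the highest count per length of the Vim transcripts, 13.6 footprints per 100 nt in replicate 1 and 43.4 in replicate 2. For Vim-001, the longest coding form, the values were 11.8 and 28.9. Nes-002, the retained intron of Nes, held 2 and 18 footprints.

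**Figure D3:**
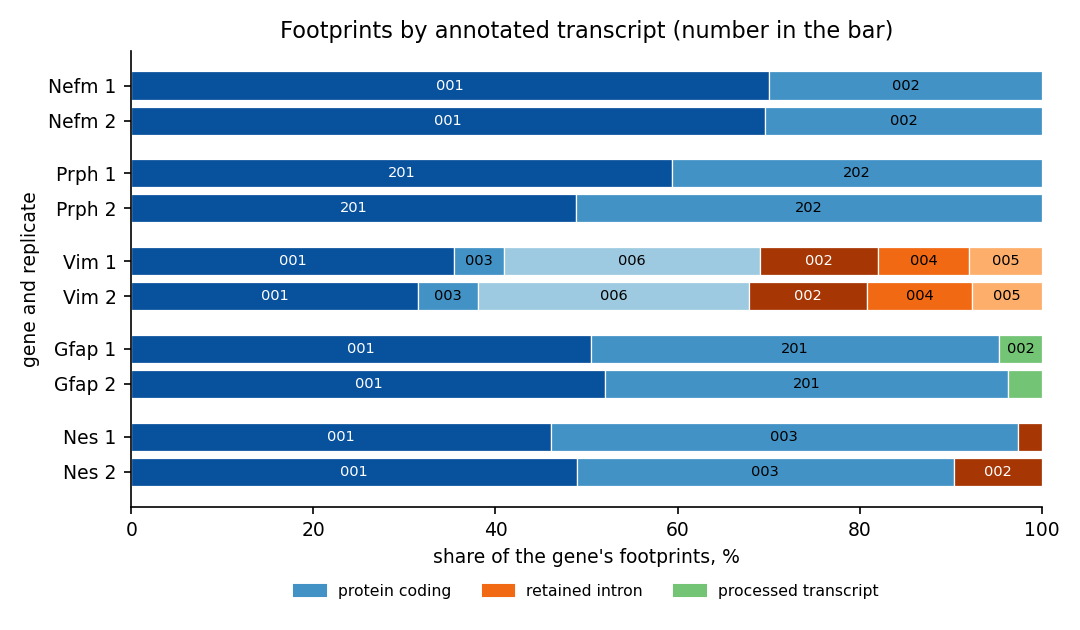
Share of each gene's footprints (%) on its annotated transcripts, with a bar for each of replicates 1 and 2; blue shades are protein-coding transcripts, orange and brown shades retained introns and green a processed transcript, and the numbers are the transcript numbers. Nefm-001 held 69.8% ± 0.307 of the Nefm footprints, Gfap was divided almost evenly between 2 coding forms, and retained introns held 31.6% ± 0.918 of the Vim footprints.

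The brains were then compared with each other, gene by gene, by a two-sided exact binomial test of the counts against the ratio of TMM-scaled library sizes (trimmed mean of M values), with Benjamini-Hochberg adjustment over all 16427 genes whose mean count was 10 or more. The test compares 2 libraries, not conditions, and covers counting noise alone. Of the 8 genes, 3 were called at an adjusted p under 0.05, where 17.4% of all genes tested were called. When only genes whose mean count was 100 or more were tested, which 7 of the 8 have, 34.0% of genes were called and 4 of the 7, with Vim added (exact binomial adjusted p = 0.0398). The first 3 were neurofilament genes and were lower in replicate 2, a direction in which 11.5% of all genes were called; 5.95% of all genes were called higher. The median log2 ratio was -0.31 over the 8 genes and 0.01 over all genes tested.

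Ina had 355 CPM in replicate 1 (328 to 383) and 217 in replicate 2 (204 to 230), a log2 ratio of -0.84 (exact binomial adjusted p = 2.37e-28). Nefl had 344 CPM (318 to 372) and 252 (238 to 266), a log2 ratio of -0.58 (exact binomial adjusted p = 4.26e-14). Nefm had 379 CPM (352 to 408) and 317 (302 to 333), a log2 ratio of -0.38 (exact binomial adjusted p = 1.87e-07). The level intervals of the libraries did not overlap for any of the 3. The log2 ratio of Nefh was -0.30, in the same direction, and it did not pass on far fewer footprints (exact binomial adjusted p = 0.289).

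The glial and progenitor genes did not pass the test. In the exact binomial test Vim had a log2 ratio of -0.16 (adjusted p = 0.0667), Nes -0.33 (adjusted p = 0.284) and Gfap -0.05 (adjusted p = 0.823). Nes, like Nefh, was tested on few footprints, and its log2 ratio lay near that of Nefh. Prph had 0.38 (adjusted p = 0.444). TMM shifted every log2 ratio by -0.13 from library totals. With library totals Gfap lay at 0.08, and Ina, Nefl and Nefm were called, where 19.0% of all genes were. Summed density of the 4 neurofilament genes was 610 CPM per kilobase in replicate 1 and 436 in replicate 2, 1.40 times as high in replicate 1. For Vim, Nes and Gfap together it was 419 and 420. Nes held only 1.73% of that sum in replicate 1 and 1.50% in replicate 2, so the sum says little about Nes.

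Ratios within a library do not depend on the scaling. The ratio of Ina to Gfap in density was 1.76 (1.54 to 2.02) in replicate 1 and 1.02 (0.935 to 1.11) in replicate 2. The ratio of Nefl to Gfap was 1.57 (1.38 to 1.81) and 1.09 (1.00 to 1.19). Of the 28 pairs, 9 had intervals that did not overlap between the libraries, and Ina was in 5 of them.

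Footprint density and some, but not all, markers of neurons moved with these differences. Over all genes tested, dense genes were lower in replicate 2: the smoothed log2 ratio at the density of Ina was -0.19, at that of Nefl -0.19 and at that of Nefm -0.21. With this trend removed, Ina stayed called at -0.65 and Nefl at -0.38, while Nefm was no longer called, at -0.17 (exact binomial adjusted p = 0.0529), and 16.2% of all genes were called. Nes then lay at -0.41 and Nefh at -0.34, both not called (exact binomial adjusted p = 0.144 and 0.199). Of 7 neuronal marker genes, 4 were called lower in replicate 2 and 1 higher, or 3 and 1 with library totals and 3 and 2 with the trend removed, and their sum was 5113 CPM in replicate 1 and 4122 in replicate 2. Stmn2, a growth cone protein of young neurons, had a log2 ratio of -0.81 and Rbfox3, a splicing factor of mature neurons, -0.05. Elavl4 was the gene called higher, at 0.30. Tubb3, which is also in the tubulin list below, had 1422 CPM in replicate 1 and 782 in replicate 2, and Stmn2 had 897 and 556. The median log2 ratio of the 7 was -0.20, and 0.05 with the trend removed. Of 6 genes of projection neurons with large axons, 0 were called by the exact binomial test and 0 had an unadjusted p under 0.05, and their sum was 306 and 334 CPM. Only 4 of the 6 had a mean count of 100 or more, where all 7 neuronal markers did. The lack of calls therefore does not show that these genes were unchanged. Of 9 astrocyte genes, 4 were called lower and 0 higher, or 3 and 1 with library totals and 2 and 1 with the trend removed, with sums of 2414 and 2312 CPM. Of 6 genes of radial glia and progenitors, 3 were called lower and 2 higher, of 5 endothelial genes 1 and 0 (1 and 2 with library totals), and of 6 genes of meninges, fibroblasts and pericytes 2 and 1. These marker counts stand beside 11.5% of all genes tested called lower and 5.95% higher. Among genes with a mean count of 100 or more, as most of these markers have, 22.8% were called lower and 11.2% higher. The part of the cell makeup in the neurofilament difference was not tested. Under edgeR's exact test, run with 1 dispersion estimated from these libraries for all genes, 0 of the 8 genes were called, and 1, Ina, had an unadjusted p under 0.05. This test called 0.067% of all genes. Its dispersion takes in the difference between the libraries that it then tests, so few calls were possible and it cannot decide about the members.

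**Figure D4:**
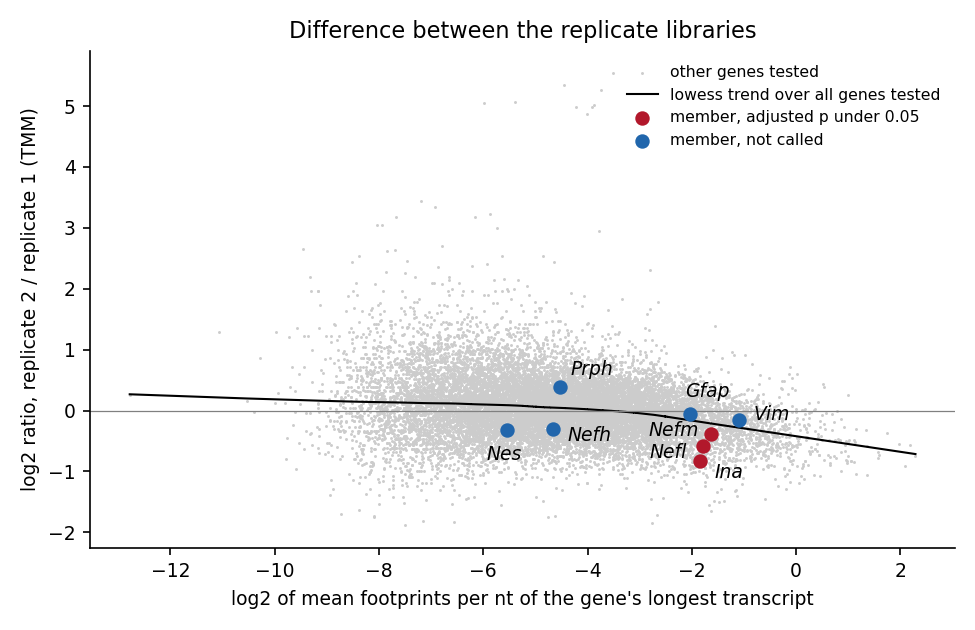
Log2 ratio of replicate 2 to replicate 1 (TMM) against the log2 of mean footprints per nt of each gene's longest transcript, for 16427 genes (grey), with the lowess trend (black). Ina, Nefl and Nefm (red, called) and Nefh and Nes (blue, not called) lie below the trend. Vim and Gfap (blue, not called) lie above it, and Prph lies above 0.

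Partners of these filaments were counted from lists of known genes. Of 13 other intermediate filament genes, 10 were tested. By the exact binomial test 2 were called lower in replicate 2 and 0 higher, or 1 and 0 with library totals, and the median log2 ratio was -0.26. Over all genes tested 11.5% were called lower and 5.95% higher. The densest was Lmnb1, a nuclear lamina protein, at 104 ± 15.6 CPM per kilobase, and it was called at -0.43. Lmna, the other lamina gene called, had 57.0 ± 5.04 and lost its call with library totals. Synm, which encodes the filament protein synemin, had 10.1 ± 0.945, while Bfsp2, a lens filament gene, was at 0 in both libraries and the muscle gene Des, for desmin, had 6 and 18 footprints. None of the 13 reached the mean densities of Vim, Ina, Nefl, Gfap and Nefm.

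Of 9 genes for linkers and turnover of filaments, 3 were called higher and 2 lower in replicate 2, or 4 and 1 with library totals. Over all genes tested 17.4% were called in either direction. Of the 9, 8 had a mean count of 100 or more, and 34.0% of all such genes were called. The higher genes were Dst and Macf1, giant linkers between cytoskeletal polymers, at 0.38 and 0.42, and Trim2, a ubiquitin ligase that acts on NF-L, at 0.23. The lower genes were the ubiquitin ligases Trim32 at -0.31, whose call was lost with library totals, and Stub1 at -0.57. Trim2 was the densest of the list at 169 ± 29.5 CPM per kilobase and Dst the sparsest at 6.05 ± 1.50.

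Of 16 kinase and phosphatase genes that act on filament heads and tails, 7 were called lower and 1 higher, or 6 and 2 with library totals. Over all genes tested 11.5% were called lower and 5.95% higher. Of the 16, 14 had a mean count of 100 or more, and 22.8% of all such genes were called lower and 11.2% higher. Cdk5r1 and Cdk5r2, the activators of the tail kinase Cdk5, had log2 ratios of -0.63 and -0.85, while Cdk5 itself had -0.19 and was not called. Also called lower were Gsk3a, Prkaca, Ppp2ca and Ppp2r1a, from -0.31 to -0.45, of which Gsk3a lost its call with library totals, and Csnk1a1 was higher at 0.32. The densest of the list was Ppp2r1a, a phosphatase scaffold, at 473 ± 75.5 CPM per kilobase, and the sparsest was Rock1 at 4.39 ± 0.127.

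All 7 genes that carry filaments along axons were called, 5 lower and 2 higher in replicate 2, where 17.4% of all genes tested were called. All 7 had a mean count of 100 or more, and 34.0% of such genes were called. With the density trend removed 3 were called lower and 3 higher: Dctn1 was not called, and Klc1 turned from -0.31 to 0.14. The neuronal kinesins Kif5a and Kif5c had log2 ratios of -0.52 and -0.47, and the widely expressed Kif5b had 0.29. Klc1, a kinesin light chain, and Dync1h1 and Dctn1, of dynein and its partner dynactin, were lower, at -0.31, -0.44 and -0.22, of which Dctn1 lost its call with library totals, and Myo5a, a myosin that binds neurofilaments, was higher at 0.28. With the trend removed, 1 gene was called lower and 0 higher among the other filament genes, 1 and 3 among linkers and turnover, and 5 and 2 among kinases and phosphatases. Median log2 ratios were 0.22 for linkers and turnover, -0.19 for kinases and phosphatases and -0.31 for carriers, beside 0.01 for all genes tested.

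Among 14 tubulin and actin genes, the subunits of the other two cytoskeletal polymers, 12 were called lower in replicate 2 and 0 higher, or 12 and 1 with library totals, with a median log2 ratio of -0.79. Over all genes tested 11.5% were called lower, and 22.8% of those whose mean count was 100 or more. These genes are among the dense ones: the median trend value at their densities was -0.54. With the trend removed 9 were called lower and 2 higher, with a median log2 ratio of -0.29, where 9.02% of all genes were called lower and 7.16% higher. Actb was then no longer called, at -0.03, and Actg1 turned from -0.55 to 0.12, while Tubb3, a neuronal tubulin, stayed called at -0.46. The summed density of the 14 was 15715 CPM per kilobase in replicate 1 and 9891 in replicate 2, against 1041 and 872 for the 8 filament genes. Tubulin and actin genes are close in sequence to one another, so their single values are uncertain where fragments match several of them.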

How the data were processed

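The authors deposited whole-number counts of footprints per transcript, not normalized, with annotated lengths. Per the labels' protocols, RNase I was applied to pooled polysome fractions and fragments of 25 to 35 nt were selected. The submitters' processing notes name Trimmomatic 0.36, Bowtie2 2.2.6, SAMtools and GRCm38.p4; the counter, annotation release, strand use and handling of duplicate or shared fragments are not given in the sources used here. Ties between overlapping transcripts of 1 gene make single transcript counts uncertain, so counts were summed per gene. Footprints in untranslated regions are included.

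By rule, all 8 members were named, and the 2 nearest coding genes to each and the called, densest and sparsest genes of each list could be. Most other genes of the lists enter counts, medians and sums only, and some are not reported here. Members and lists were chosen with earlier results of these data known. TMM factors and the exact test came from edgeR 4.0.16 (R 4.3.3); size factors from DESeq2 1.42.0 were an alternative. With 1 group there is no contrast, so a quasi-likelihood fit was not possible. Binomial tests and Clopper-Pearson intervals used SciPy 1.17.1, log2 ratios a prior of 0.5 CPM, and the density trend a lowess with fraction 0.3 (statsmodels 0.14.6). The binomial test was tested on simulated data: of 200 genes changed by 1 on the log2 scale among 16427, 59% were called. The simulated counts held counting noise alone, the noise that the test assumes, so variation between animals was not covered. Alternatives changed the scaling, count filter, transcripts, length and test. Symbols of all 8 members were in the RefSeq table. Messenger RNA abundance was not analysed here, so levels are not translational efficiencies.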

Additional observations from a re-analysis of the deposited data

How the results depend on the processing

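No paired analysis was possible because both libraries belong to 1 group. The number of all genes called between the libraries, 2861, stayed within 1.5 times under 6 of 8 alternatives; it was 1444 with the highest transcript only and 11 with edgeR's exact test and the common dispersion, which called 0 members (unadjusted p under 0.05 for 1 member and 719 genes). That dispersion was estimated from the same 2 libraries as if they were alike, so it takes in the difference under test, and few calls were possible. The share of calls higher in replicate 2 was 34.2% with TMM, 60.7% with library totals, 44.3% with the trend removed and 17.6% with the highest transcript only. The Nefm to Nefl density ratio, 0.757, was 1.20 with transcript length and 0.529 with the highest transcript only; it ranged from 0.707 to 0.808 when 1 replicate was left out. Of the 28 ordered pairs, 27 kept their order with the coding length of the highest transcript, 25 with transcript length, 26 with protein-coding transcripts only and 24 with the highest transcript only; leaving out 1 replicate kept 26 to 27. The log2 ratio of Gfap changed sign with library totals (0.076), the highest transcript only (0.069) and the trend removed (0.11), and that of Vim with the trend removed (0.12); the cause was not tested. Of 56 density values under the alternatives, 13 moved by at least the replicate spread (SD). Leaving out 1 of 2 replicates always shifts a mean by less than their SD, so the 8 values without each replicate could not move. Nefl, Nefm, Nefh, Ina and Prph have protein-coding transcripts only, so that setting could not move them either. The 13 of 56 therefore does not measure robustness. All alternatives were listed at the start. Depth limits Prph most, at 32 footprints in replicate 1; where nothing was counted, the limit from 3 counts is 1.61 CPM in replicate 1 and 0.570 in replicate 2.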
